A study of Mus musculus with 8 samples.

Results

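The genes described here build and remodel the interstitial matrix of the heart. They comprise 40 of the 23282 genes in the count table, chosen by name with earlier results of these data known. The groups are interstitial collagens, fibronectin and elastic fibre genes, small proteoglycans, matricellular genes, crosslinking enzymes, metalloproteases with their inhibitors, and TGF-beta ligands and receptors. Their Entrez numbers were matched to mouse symbols and all 40 passed the filter on low counts. Whole hearts of 4 AE3-null and 4 wild-type mice were profiled by RNA-seq. The AE3-null mice were males of the FVB/N strain aged 4 months and lacked AE3, the chloride/bicarbonate exchanger of the muscle cell membrane that the gene Slc4a3 encodes. The wild-type mice were FVB/N males of the same age. The labels do not say how the null allele was made or in which cells it acts.

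The library totals lay between 9133628 and 27078351 counts. Slc4a3 stood at 31.5 to 34.6 CPM in AE3-null libraries and at 378 to 389 CPM in wild-type libraries, so every library matched its label (CPM, counts relative to the library size after TMM scaling). The cardiac myosin gene Myh6 averaged 48124 ± 2323 CPM in AE3-null hearts and 47853 ± 2446 CPM in wild-type hearts (SD, n = 4 each). Wild-type replicate 3 stood apart from the other 7 libraries on the second principal component of all tested genes, at -22.6 against -1.48 to 8.89. On the first component it was the wild-type library nearest the AE3-null libraries, at 1.2. The other wild-type libraries lay at 9.02 to 22.55 there and the AE3-null libraries at -13.58 to -10.87. Values without wild-type replicate 3 are given for the called genes and where leaving it out changes a call.

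Interstitial matrix surrounds the muscle cells and capillaries of the heart. Fibroblasts secrete most of its fibrillar collagen, which lysyl oxidases crosslink into stiff fibres and metalloproteases cleave. Matricellular proteins are secreted into this scaffold without bearing load and tune how cells attach to it. TGF-beta, stored in the matrix in a latent form, is the growth factor best known for raising collagen synthesis during scarring.

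The upstream DNA of 4 of these genes is shown here because 3 of them fell in AE3-null hearts and Thbs2, a relative of Thbs4, had a fold change of the opposite sign. RefSeq sequences on build GRCm38.p6, which is not the build the reads were aligned to, were available for 28 of the 40 genes. Mmp9 and Loxl2 are among the other 12. Tnc has 2 starts in the table, and the window before the upstream one is shown. Each line holds the 250 bases before the gene's start, 5′ to 3′ on the gene's strand, with matches to the motifs named below in capitals.
Thbs4, chr13:92794819-92795068, minus strand: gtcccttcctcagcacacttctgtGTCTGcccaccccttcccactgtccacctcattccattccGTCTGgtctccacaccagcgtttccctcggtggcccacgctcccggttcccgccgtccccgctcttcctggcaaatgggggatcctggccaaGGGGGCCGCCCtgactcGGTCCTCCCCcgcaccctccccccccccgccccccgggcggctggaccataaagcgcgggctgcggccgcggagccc
Sparc, chr11:55420081-55420330, minus strand: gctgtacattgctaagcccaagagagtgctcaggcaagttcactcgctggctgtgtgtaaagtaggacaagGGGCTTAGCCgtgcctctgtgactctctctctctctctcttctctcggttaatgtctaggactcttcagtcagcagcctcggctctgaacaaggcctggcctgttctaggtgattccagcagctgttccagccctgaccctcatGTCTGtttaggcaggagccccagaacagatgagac
Tnc, chr4:64047016-64047265, minus strand: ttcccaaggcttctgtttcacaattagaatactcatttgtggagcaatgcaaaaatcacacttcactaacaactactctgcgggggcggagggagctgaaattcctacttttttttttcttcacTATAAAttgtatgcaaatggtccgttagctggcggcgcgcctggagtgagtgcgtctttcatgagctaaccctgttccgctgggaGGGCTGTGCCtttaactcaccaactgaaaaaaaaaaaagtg
Thbs2, chr17:14694263-14694512, minus strand: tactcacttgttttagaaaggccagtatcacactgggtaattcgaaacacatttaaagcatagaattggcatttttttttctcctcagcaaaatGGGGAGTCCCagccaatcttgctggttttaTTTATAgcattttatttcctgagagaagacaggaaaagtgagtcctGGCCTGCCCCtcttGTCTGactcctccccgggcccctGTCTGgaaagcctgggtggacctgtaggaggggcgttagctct
The motifs were searched on both strands. They were the Smad element CAGAC, the AP-1 site TGANTCA, the TATA box TATAAA, a loose form of the NF-kB site and the E-box CACGTG. The Smad element, the sequence that carriers of the TGF-beta signal bind, matched in Thbs4 and Thbs2 at 2 places each, in Sparc at 1 place and in the Tnc window shown at none. The window before the other Tnc start, which overlaps the one shown, held 1 match. It matched in 42.2% of 32851 upstream windows of all genes. A TATA match was present in Tnc and Thbs2, against 12.4% of all windows. The loose NF-kB form matched in all 4 and in 45.8% of all windows, and 2 of its 3 matches in Thbs4 overlapped. Over the 33 windows of the 28 genes, 17 held the Smad element and 9 a TATA match. Neither the AP-1 site nor the E-box matched in these 4 windows, against 6.75% and 6.02% of all windows. The Thbs4 window held 70.8% G and C, the Sparc window 54.0%, the Thbs2 window 46.8% and the Tnc window 44.8%, around a median of 52.4% over all windows.

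The comparison asked which of these genes differed between AE3-null and wild-type hearts. Mmp9, Tnc, Thbs4, Loxl2 and Sparc fell in AE3-null hearts and no gene of the 40 rose (edgeR's quasi-likelihood test, adjusted p under 0.05 over all 14136 genes tested). The 5 falls are 12.5% of the 40 genes, against a background of 3.31% of all tested genes called lower, 3.16% called higher and 6.47% called either way. With total counts as the only scaling, 528 genes were called higher and 361 lower over all genes, against 447 and 468 with TMM. At an unadjusted p under 0.05, 15 of the 40 genes were lower and none was higher, against 11.2% and 9.79% of all tested genes, and neither DESeq2 nor limma voom called any of the 40 higher. Negative log2 fold changes were found for 34 of the 40, with a median of -0.12, while 50.5% of all tested genes had a negative value and their median was -0.0018. Of the 34, 29 did not pass the test, some of them with larger differences than the called Sparc.

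In 6 of the 40 genes, Fbn1, Postn, Sparc, Thbs4, Loxl2 and Mmp9, every AE3-null library lay below every wild-type library, against a background of 6.15% of all tested genes. In none of the 40 did every AE3-null library lie above every wild-type library, against a background of 6.10%. The summed level of the 40 genes was 4017 to 4133 CPM in AE3-null libraries and 4306 to 4451 CPM in wild-type libraries. That sum includes the genes already called lower, so it is not a separate result. In whole-heart RNA, fewer cells of a type and less RNA per cell cannot be told apart. The fold change of each gene is plotted by the role of its product.

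**Figure D1:**
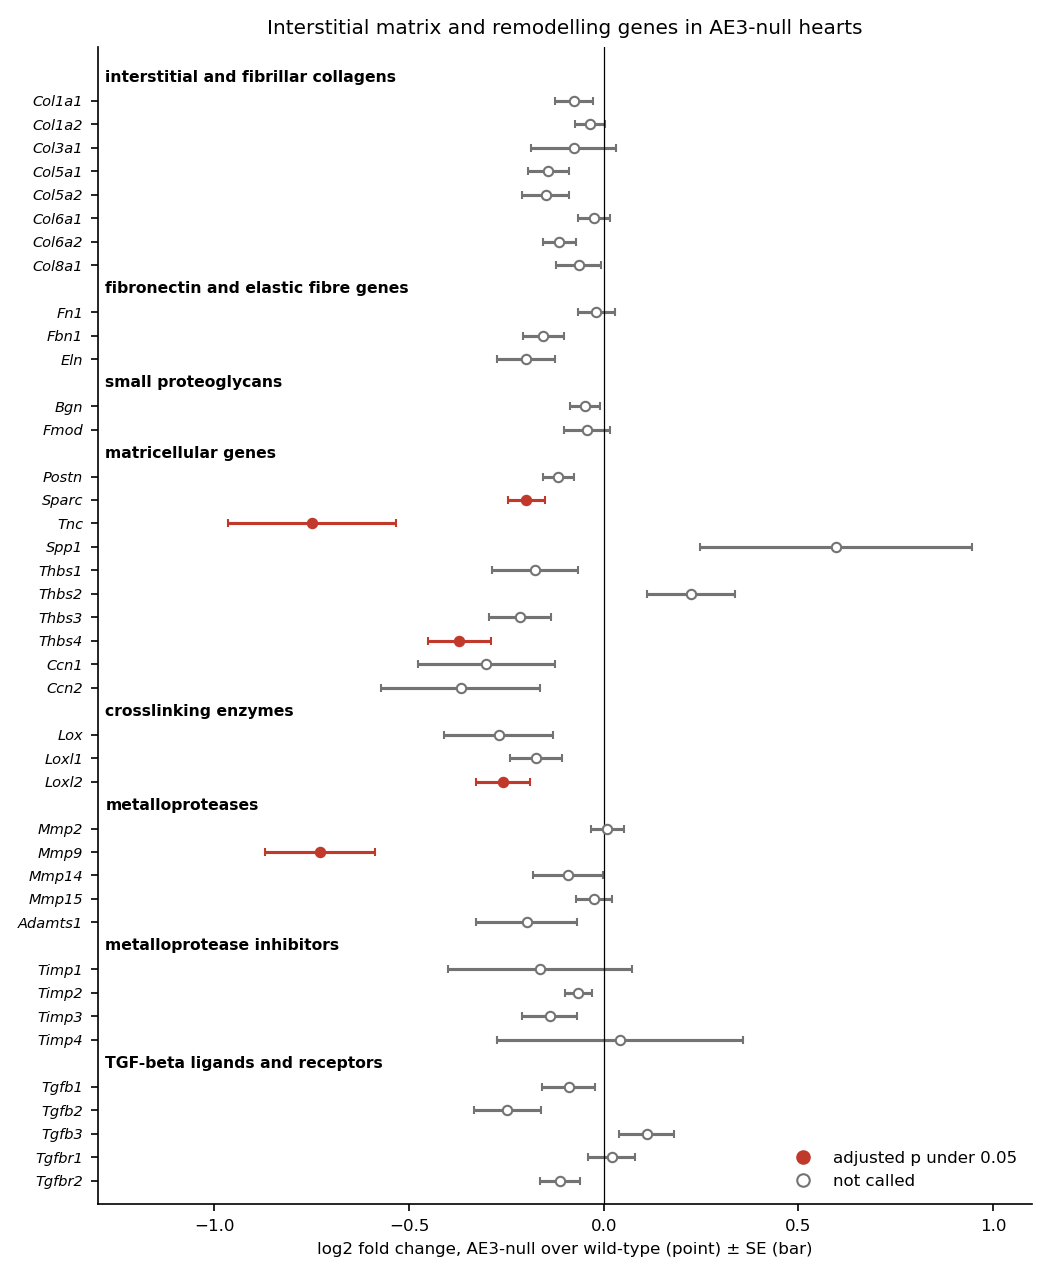
Log2 fold change of AE3-null over wild-type for the 40 genes, grouped by role, with bars for ± SE. Filled points passed an adjusted p of 0.05 and open points did not. The 5 filled points, Sparc, Tnc, Thbs4, Loxl2 and Mmp9, all lie left of 0, and Spp1 and Thbs2 lie farthest right with wide bars.

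Mmp9, a gelatinase that cleaves denatured collagen and basement membrane and that neutrophils and macrophages also make, fell in AE3-null hearts. It stood at 2.36, 2.59, 2.63 and 2.73 CPM in AE3-null replicates 1 to 4, against 4.45, 4.16, 4.99 and 3.58 CPM in wild-type replicates 1 to 4. The 2 groups did not overlap, and the highest AE3-null library lay below the lowest wild-type library by more than the whole AE3-null range. The means were 2.58 ± 0.156 CPM in AE3-null hearts and 4.29 ± 0.584 CPM in wild-type hearts (SD, n = 4 each), a change of -39.7% (log2 fold change -0.73, SE 0.141, edgeR adjusted p 0.00574). These levels rest on few reads, 56, 24, 50 and 74 reads in AE3-null replicates 1 to 4 and 72, 61, 76 and 67 reads in wild-type replicates 1 to 4. Without wild-type replicate 3 the log2 fold change was -0.65 (edgeR adjusted p 0.00706). The call held in all 16 alternative fits, with adjusted p-values between 0.00273 and 0.0268. Of the neutrophil and platelet markers, none of 5 tested was called but all 5 had negative log2 fold changes, with a median of -0.37. Ppbp, a platelet chemokine, had -0.97 (SE 0.291) (edgeR adjusted p 0.0569), Lcn2 had -0.61 (SE 0.301) and Csf3r -0.37 (SE 0.2397). Camp was at 0 in all 8 libraries, and S100a8 and S100a9 were under 0.58 CPM in every library. Lcn2 rested on 10 to 16 reads in AE3-null libraries and 11 to 25 in wild-type libraries. The summed level of that marker list was 14.2 to 17.1 CPM in AE3-null libraries and 16.7 to 21.01 CPM in wild-type libraries. Lcn2 and Csf3r averaged 0.782 and 1.43 CPM in AE3-null libraries and 1.12 and 1.92 CPM in wild-type libraries. Most of that sum therefore came from the platelet genes of the list. The summed level of the macrophage markers, of which none of 9 was called, was 449.9 to 515 CPM in AE3-null libraries and 468 to 526 CPM in wild-type libraries. The part of either cell type in the fall of Mmp9 was not tested.

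The other metalloproteases were not called. The gelatinase Mmp2 stood at 107, 104, 110.5 and 103 CPM in AE3-null hearts, against 108, 103, 112 and 99.7 CPM in wild-type hearts (log2 fold change 0.01, SE 0.04305, edgeR adjusted p 0.933). The AE3-null range lay within the wild-type range. Mmp14, the membrane-bound enzyme that activates Mmp2, had a log2 fold change of -0.09 (SE 0.0905), and Mmp15, another membrane-bound enzyme, -0.03 (SE 0.0473). Adamts1, a secreted protease that cleaves versican, had -0.20 (SE 0.131). Its wild-type libraries ranged from 54.3 CPM in replicate 3 to 85.3 CPM in replicate 4, while the AE3-null libraries lay between 54.7 and 62.8 CPM.

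The tissue inhibitors of metalloproteases, which block these enzymes in the matrix, gave no call among 4. Timp3, which binds tightly to the matrix, stood at 339.9, 279.9, 311 and 331 CPM in AE3-null hearts, against 315, 380.0, 361 and 336 CPM in wild-type hearts (log2 fold change -0.14, SE 0.0709, edgeR adjusted p 0.301). Its range in AE3-null hearts overlapped that in wild-type hearts. Timp2 averaged 208 ± 6.96 CPM in AE3-null hearts and 217 ± 3.69 CPM in wild-type hearts (SD, n = 4 each), a log2 fold change of -0.07 (SE 0.0354). Timp1, the inhibitor most readily induced by injury, was low, at 1.18 to 2.0 CPM in AE3-null hearts and 1.05 to 2.47 CPM in wild-type hearts, with a log2 fold change of -0.16 (SE 0.236). Timp4, which the heart is known to express, varied more than 1.5-fold within both groups and had a log2 fold change of 0.04 (SE 0.315), which was -0.19 when AE3-null replicate 1 was left out and 0.29 when wild-type replicate 2 was.

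Among the 10 matricellular genes, Thbs4, Sparc and Tnc fell and 7 were not called. Thbs4, a thrombospondin of muscle and tendon matrix that is induced in loaded or failing hearts, stood at 11.2, 11.96, 11.6 and 11.3 CPM in AE3-null replicates 1 to 4, against 15.3, 16.2, 12.8 and 15.1 CPM in wild-type replicates 1 to 4. All 4 AE3-null libraries lay within a narrow band below the lowest wild-type library, replicate 3. The means were 11.5 ± 0.341 CPM in AE3-null hearts and 14.8 ± 1.44 CPM in wild-type hearts (SD, n = 4 each), a change of -22.7% (log2 fold change -0.37, SE 0.08099, edgeR adjusted p 0.0118). Without wild-type replicate 3 the log2 fold change was -0.43 (edgeR adjusted p 0.000968). The call held in all 16 alternative fits, with adjusted p-values between 0.000968 and 0.0492.

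Sparc, a collagen-binding glycoprotein that fibroblasts need to deposit mature collagen and that endothelial cells also express, stood at 488, 499, 466 and 440.2 CPM in AE3-null replicates 1 to 4, against 555, 512, 585 and 521 CPM in wild-type replicates 1 to 4. The groups did not overlap, though AE3-null replicate 2 and wild-type replicate 2 came close to each other. The means were 474 ± 26.1 CPM in AE3-null hearts and 543 ± 33.7 CPM in wild-type hearts (SD, n = 4 each), a change of -12.9% (log2 fold change -0.20, SE 0.0475, edgeR adjusted p 0.021). The call was lost with total counts as the only scaling (adjusted p 0.059), without AE3-null replicate 3 (0.068), when AE3-null replicate 4 was left out (0.0753) and when wild-type replicate 1 was (0.0628). Without wild-type replicate 3 the log2 fold change was -0.16 (edgeR adjusted p 0.022). Endothelial markers were lower beside it: 4 of 10 fell, among them Pecam1 (-0.26) and Esam (-0.20, log2), against a background of 3.31% of all tested genes. Their summed level was 1267 to 1356 CPM in AE3-null libraries and 1462 to 1576 CPM in wild-type libraries. Of 9 fibroblast markers tested, 4 fell as well, and 2 had positive log2 fold changes without a call. The part of endothelial cells or fibroblasts in the fall of Sparc was not tested.

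Tnc, tenascin-C, a matricellular protein that adult heart muscle makes little of outside injury, passed the test with overlapping groups and was lower in AE3-null hearts. It stood at 1.895, 1.72, 1.16 and 1.33 CPM in AE3-null replicates 1 to 4, against 3.09, 2.32, 1.77 and 2.89 CPM in wild-type replicates 1 to 4. Wild-type replicate 3 lay below AE3-null replicate 1, and the other 3 wild-type libraries lay above all AE3-null libraries. The means were 1.53 ± 0.342 CPM in AE3-null hearts and 2.52 ± 0.595 CPM in wild-type hearts (SD, n = 4 each), a change of -40.5% (log2 fold change -0.75, SE 0.216, edgeR adjusted p 0.0479), from 45, 16, 22 and 36 reads in AE3-null replicates 1 to 4 and 50, 34, 27 and 54 reads in wild-type replicates 1 to 4. The call was lost in 10 of the 15 alternative fits in which Tnc was tested, DESeq2 (0.0631), limma voom (0.0509) and total counts only (0.0526) among them, and its adjusted p was 0.00837 without wild-type replicate 3. It was also lost without AE3-null replicate 2 (0.074), 3 (0.133) or 4 (0.157), and when wild-type replicate 1 was left out (0.144), 2 (0.067) or 4 (0.157).

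**Figure D2:**
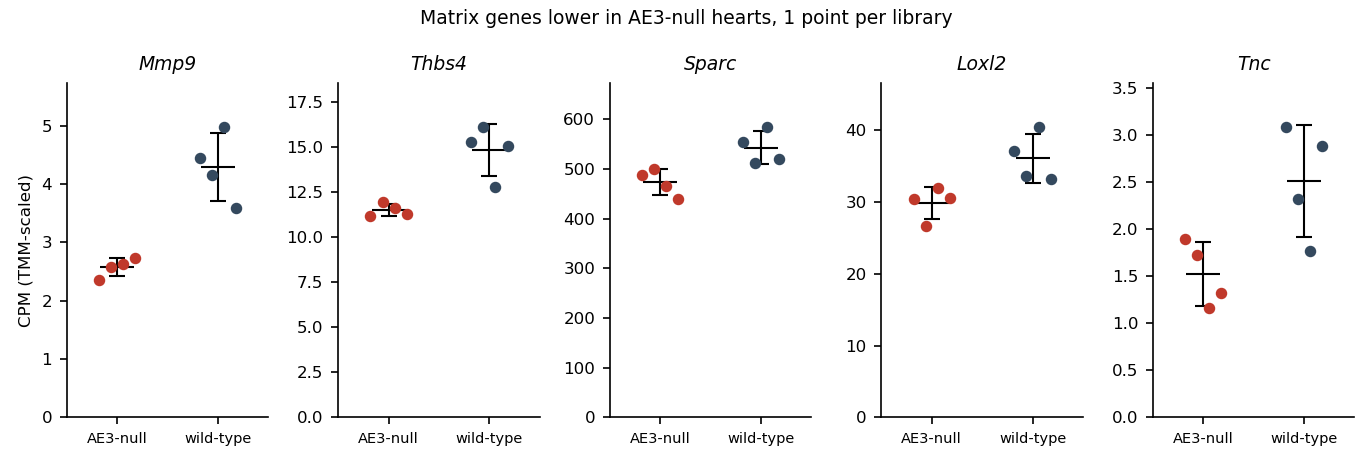
CPM of Mmp9, Thbs4, Sparc, Loxl2 and Tnc in each library (points), AE3-null left and wild-type right, with the mean and SD of 4 libraries. Axes start at 0 and differ between genes. The groups are apart for the first 4 genes and overlap for Tnc.

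The other thrombospondins, secreted glycoproteins that bind cells, matrix and growth factors, did not pass the test and did not all point one way. Thbs1, which can activate latent TGF-beta, stood at 23.7, 24.02, 24.6 and 20.4 CPM in AE3-null hearts, against 25.3, 29.7, 20.3 and 28.7 CPM in wild-type hearts (log2 fold change -0.18, SE 0.1104, edgeR adjusted p 0.404). Thbs3 stood at 13.1, 13.03, 12.8 and 12.8 CPM in AE3-null hearts, against 16.6, 15.7, 12.99 and 14.8 CPM in wild-type hearts (log2 fold change -0.22, SE 0.0797, edgeR adjusted p 0.122). Thbs2, which limits vessel growth, stood at 56.9, 47.4, 52.5 and 56.8 CPM in AE3-null hearts, against 45.7, 43.5, 56.6 and 38.7 CPM in wild-type hearts (log2 fold change 0.22, SE 0.113, edgeR adjusted p 0.306). In all 4 thrombospondins wild-type replicate 3 lay on the side of the AE3-null libraries: lowest of the wild-type libraries for Thbs1, Thbs3 and Thbs4, and highest for Thbs2. It was also the wild-type library nearest the AE3-null libraries on the first principal component of all tested genes, so this position is not particular to the thrombospondins. Without that library, Thbs1 and Thbs3 had log2 fold changes of -0.27 and -0.27 (edgeR adjusted p 0.0219 and 0.0201) and Thbs2 had 0.34 (edgeR adjusted p 0.0043). In that fit 8 of the 40 genes were called lower and 1 higher, against backgrounds of 6.33% and 5.74% of all tested genes.

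**Figure D3:**
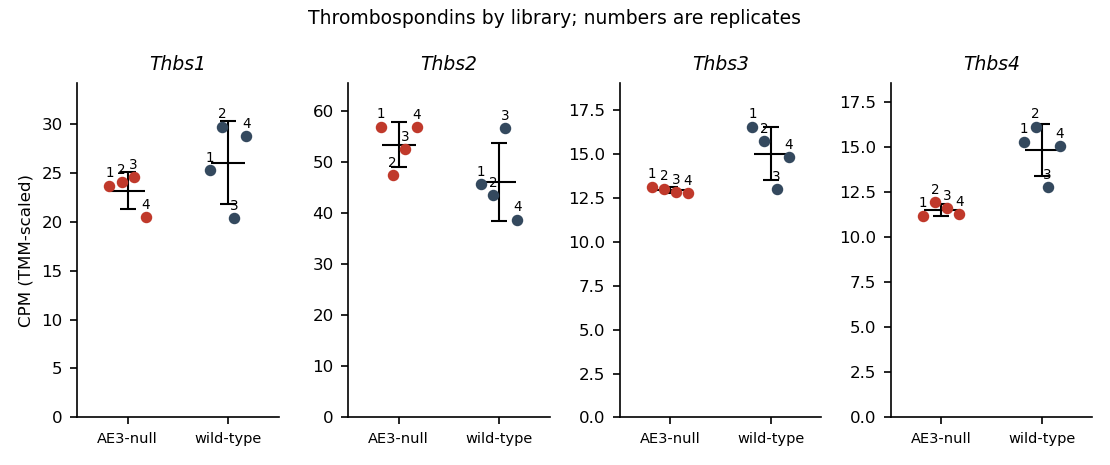
CPM of the 4 thrombospondin genes in each library, numbered by replicate, AE3-null left and wild-type right, with the mean and SD of 4 libraries. Axes start at 0 and differ between genes. Wild-type replicate 3 is the lowest wild-type library for Thbs1, Thbs3 and Thbs4 and the highest for Thbs2.

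Postn, periostin, a marker of activated fibroblasts, stood at 71.01, 71.3, 72.8 and 69.1 CPM in AE3-null hearts, against 77.7, 75.1, 76.3 and 78.9 CPM in wild-type hearts. Each AE3-null library lay below each wild-type library, but the difference of -0.12 (SE 0.0397) on the log2 scale did not pass the test (edgeR adjusted p 0.0914). Ccn1 and Ccn2, secreted proteins that stretch, growth factors and TGF-beta induce within hours, varied widely. Ccn2 ranged from 154 to 216 CPM in AE3-null hearts and from 175 to 303 CPM in wild-type hearts (log2 fold change -0.37, SE 0.204, edgeR adjusted p 0.373). Wild-type replicates 2 and 4 held its 2 highest values. Ccn1 had a log2 fold change of -0.30 (SE 0.176), with AE3-null replicate 1 lowest at 48.6 CPM. The summed level of 14 immediate early genes, none of them called, was 391 to 610.1 CPM in AE3-null libraries and 430.1 to 618 CPM in wild-type libraries, lowest in AE3-null replicate 1 and, among wild-type libraries, in replicate 3. Their part in the spread of Ccn1 and Ccn2 was not tested. Spp1, osteopontin, a product of macrophages in injured heart, was near the detection limit, with 19, 12, 9 and 21 reads in AE3-null replicates 1 to 4 and 8, 11, 8 and 6 reads in wild-type replicates 1 to 4 and a log2 fold change of 0.60 (SE 0.349) (edgeR adjusted p 0.351).

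Of the crosslinking enzymes, copper-dependent oxidases that join collagen and elastin chains, Loxl2 fell and the other two did not pass the test. Loxl2 stood at 30.4, 26.7, 32.0 and 30.6 CPM in AE3-null replicates 1 to 4, against 37.1, 33.6, 40.5 and 33.3 CPM in wild-type replicates 1 to 4. The groups did not overlap, and AE3-null replicate 3 came closest to the wild-type range. The means were 29.9 ± 2.26 CPM in AE3-null hearts and 36.1 ± 3.41 CPM in wild-type hearts (SD, n = 4 each), a change of -16.5% (log2 fold change -0.26, SE 0.06904, edgeR adjusted p 0.0343). The call was lost in 6 of 16 alternative fits: with total counts only (0.0587), in edgeR without robust moderation (0.0527), without AE3-null replicate 1 (0.0813), 2 (0.0908) or 4 (0.0827), and when wild-type replicate 1 was left out (0.0951). Without wild-type replicate 3 the log2 fold change was -0.20 (edgeR adjusted p 0.0483). Loxl1, which acts mainly on elastic fibres, averaged 40.1 ± 4.24 CPM in AE3-null hearts and 45.1 ± 1.399 CPM in wild-type hearts (SD, n = 4 each) (log2 fold change -0.17, SE 0.0659, edgeR adjusted p 0.132). AE3-null replicate 3 was its highest AE3-null library, and without it the log2 fold change was -0.24 (edgeR adjusted p 0.0386). Lox, the main collagen crosslinker, was low at 3.66 ± 0.424 CPM in AE3-null hearts and 4.35 ± 0.621 CPM in wild-type hearts (SD, n = 4 each), with a log2 fold change of -0.27 (SE 0.141).

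None of the 8 interstitial collagens was called, and all 8 had small negative log2 fold changes, between -0.15 and -0.02. Col3a1, the chain of the thin, pliable type III fibres, stood at 371, 397, 411 and 353 CPM in AE3-null hearts, against 442, 346, 466 and 361 CPM in wild-type hearts. Wild-type replicates 1 and 3 were high and replicates 2 and 4 lay among or below the AE3-null libraries, so the spread within wild-type hearts exceeded the difference between genotypes (log2 fold change -0.08, SE 0.109, edgeR adjusted p 0.759). Col1a1 and Col1a2, the chains of type I collagen and the main load-bearing fibre, had log2 fold changes of -0.08 (SE 0.0477) and -0.04 (SE 0.0392). Col6a2, a chain of the type VI collagen that links cells to the matrix, had the smallest p of the group and stood at 111, 116, 108 and 108 CPM in AE3-null hearts, against 125, 111, 121 and 121 CPM in wild-type hearts (log2 fold change -0.11, SE 0.04201, edgeR adjusted p 0.119). AE3-null replicate 2 lay above wild-type replicate 2, and the other 3 wild-type libraries lay above all AE3-null libraries. Its partner chain Col6a1 had -0.02 (SE 0.041). The type V chains Col5a1 and Col5a2, which set the diameter of collagen fibrils, had -0.14 (SE 0.0525) and -0.15 (SE 0.0602), and Col8a1, a network collagen of vessels and injured heart, had -0.06 (SE 0.0585).

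Fibronectin and the elastic fibre genes gave no call among 3. Fn1, fibronectin, the adhesive protein on which other matrix is laid down, averaged 128 ± 5.65 CPM in AE3-null hearts and 129 ± 8.15 CPM in wild-type hearts (SD, n = 4 each) (log2 fold change -0.02, SE 0.0466, edgeR adjusted p 0.868). Fbn1, the fibrillin that forms microfibrils and holds latent TGF-beta, stood at 94.7, 91.4, 96.95 and 87.4 CPM in AE3-null hearts, against 114, 97.1, 97.7 and 103 CPM in wild-type hearts. The groups did not overlap, by a small margin, and the gene passed the test only without wild-type replicate 3 among the fits with 1 library left out (log2 fold change -0.15, SE 0.0519, edgeR adjusted p 0.0886, and 0.0339 without that library). Eln, elastin, averaged 42.1 ± 5.21 CPM in AE3-null hearts and 48.4 ± 1.85 CPM in wild-type hearts (SD, n = 4 each) (log2 fold change -0.20, SE 0.0743, edgeR adjusted p 0.132). AE3-null replicate 3 was its highest AE3-null library, and without it the log2 fold change was -0.28 (edgeR adjusted p 0.0205). Of the small proteoglycans that coat collagen fibrils, Bgn, biglycan, stood at 393, 387, 418 and 397 CPM in AE3-null hearts, against 408, 408, 396 and 439 CPM in wild-type hearts (log2 fold change -0.05, SE 0.0385, edgeR adjusted p 0.509). These groups overlapped. Fmod, fibromodulin, averaged 21.2 ± 1.195 CPM in AE3-null hearts and 21.9 ± 0.4498 CPM in wild-type hearts (SD, n = 4 each), a log2 fold change of -0.04 (SE 0.06001).

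No TGF-beta ligand or receptor was called among 5. Tgfb2, the ligand with the smallest p, stood at 17.9, 20.1, 22.4 and 19.4 CPM in AE3-null hearts, against 22.1, 22.1, 22.3 and 27.8 CPM in wild-type hearts (log2 fold change -0.25, SE 0.0867, edgeR adjusted p 0.106). Wild-type replicate 4 was high, the other 3 wild-type libraries lay close together, and AE3-null replicate 3 reached them. Tgfb1, the ligand most studied in fibrosis, had a log2 fold change of -0.09 (SE 0.0682), and Tgfb3 had 0.11 (SE 0.0712). The type II receptor Tgfbr2, which binds the ligand first, averaged 96.8 ± 5.02 CPM in AE3-null hearts and 105 ± 7.42 CPM in wild-type hearts (SD, n = 4 each) (log2 fold change -0.11, SE 0.0521, edgeR adjusted p 0.228). Tgfbr1, the type I receptor that phosphorylates Smad proteins, had 0.02 (SE 0.0604).

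Levels of different genes were compared per length, as mean CPM divided by the kilobases of the gene's merged exons in GENCODE M21. Merged exons take in every isoform of a gene, and the annotation behind the counts is not given. Ranks between genes are therefore approximate. Sparc had the highest level of the 40, at 125 CPM per kb in AE3-null hearts and 143 CPM per kb in wild-type hearts. Ccn2 followed at 65.7 CPM per kb in AE3-null hearts and 84.8 CPM per kb in wild-type hearts. Bgn stood at 65.4 CPM per kb in AE3-null hearts and 67.6 CPM per kb in wild-type hearts. By this measure the matricellular and proteoglycan genes at the top were above every collagen. Among fibrillar collagens Col3a1 stood at 38.99 CPM per kb in AE3-null hearts and 41.1 CPM per kb in wild-type hearts. Col1a1 stood at 29.3 CPM per kb in AE3-null hearts and 30.9 CPM per kb in wild-type hearts. Of the 2 gelatinases, Mmp2 stood at 31.5 CPM per kb in AE3-null hearts and 31.3 CPM per kb in wild-type hearts and was the more abundant. Mmp9, which fell, stood at 0.728 CPM per kb in AE3-null hearts and 1.21 CPM per kb in wild-type hearts. Tnc stood at 0.196 CPM per kb in AE3-null hearts and 0.324 CPM per kb in wild-type hearts and Spp1 at 0.507 CPM per kb in AE3-null hearts and 0.317 CPM per kb in wild-type hearts, the lowest of the 40. Of the called genes, Sparc held rank 1 of 40 by wild-type level per length, Loxl2 rank 22, Thbs4 rank 30, Mmp9 rank 37 and Tnc rank 39.

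The strand setting of the counts is not given in the sources used here, so counts of genes that share exonic sequence with another gene are uncertain. Exons of other genes on the opposite strand cover 21.3% of the exon length of Timp3 (Syn3), 23.2% of that of Ccn2 (Gm15270) and 20.1% of that of Fbn1 (Gm9913) in GENCODE M21. Of the called genes, the share was 5.57% for Loxl2 (Gm27177) and 2.26% for Tnc (8030451A03Rik), and none was found for Mmp9, Thbs4 or Sparc. The share was 6.59% for Thbs3 (Mtx1), and Spp1 shares 18.8% with Gm42793 on the same strand.

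**Figure D4:**
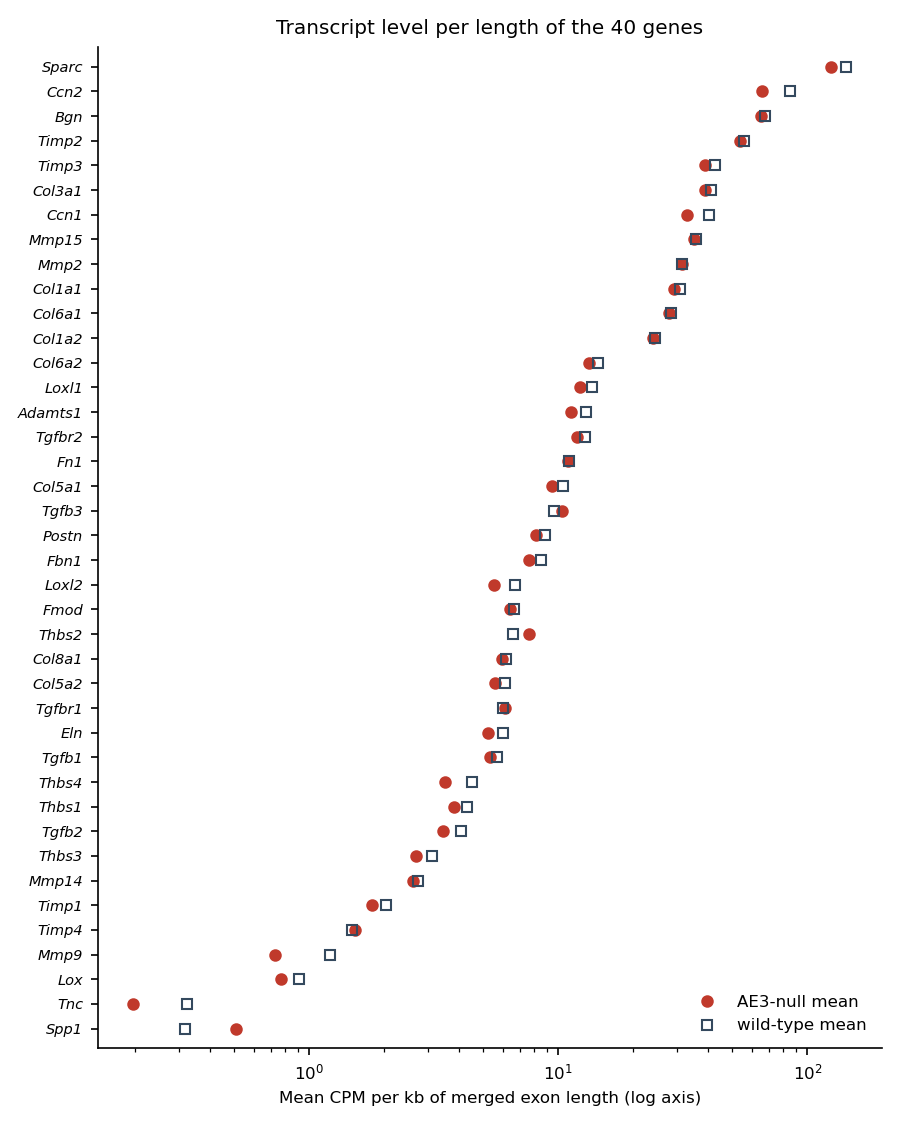
Mean CPM per kb of merged exon length of the 40 genes in AE3-null (filled circles) and wild-type hearts (open squares), on a log axis, ordered by the wild-type level. Spp1 and Tnc are lowest and Sparc is highest, at 125 CPM per kb in AE3-null hearts and 143 CPM per kb in wild-type hearts.

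Another 110 genes of the matrix were read from the same fit, in 6 lists, and 103 of them were tested. Of these, 13 fell and 4 rose, or 12.6% and 3.88%, against the backgrounds of 3.31% and 3.16%. Their median log2 fold change was -0.06. Collagen maturation genes held 3 falls and 1 rise among 15 tested. P4ha2, a prolyl hydroxylase that stabilizes the collagen helix, averaged 70.5 ± 1.76 CPM in AE3-null hearts and 92.04 ± 10.4 CPM in wild-type hearts (SD, n = 4 each) (log2 fold change -0.39, SE 0.0649, edgeR adjusted p 0.00359). Plod3, a lysyl hydroxylase, fell by 0.28 on the log2 scale and Serpinh1, the collagen chaperone, by 0.47. Adamts3, a protease that trims the ends of procollagen, rose (log2 fold change 0.51, SE 0.0955, edgeR adjusted p 0.00437). P4ha1 had the largest fold change of the list but was not called (log2 fold change -0.76, SE 0.183, edgeR adjusted p 0.0684). It stood at 72.7 to 83.4 CPM in AE3-null hearts and 90.5 to 166 CPM in wild-type hearts, without overlap.

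Among 20 other TGF-beta pathway genes 5 fell and none rose. They were the ubiquitin ligase Smurf2 (-0.29), the co-receptor Eng (-0.24), the fibrillin-binding protein Ltbp2 (-0.35), the endothelial type I receptor Acvrl1 (-0.20) and the Smad repressor Ski (-0.15), each given as a log2 fold change. At an unadjusted p under 0.05 the list held 7 lower and no higher genes of 20, against the 11.2% and 9.79% of all tested genes, and Tgfbi, which TGF-beta induces, had a log2 fold change of 0.13 (SE 0.0678) without a call (edgeR adjusted p 0.274). Other small proteoglycans and glycoproteins held 3 falls, Vcan (-0.34), Fstl1 (-0.20) and Mfap5 (-0.25), and 1 rise, Emilin2 (0.25), among 22. Of the 22, 12 had negative and 10 positive log2 fold changes, and 6 were lower and 4 higher at an unadjusted p under 0.05. Lum was not called (log2 fold change 0.31, SE 0.0845, edgeR adjusted p 0.0657). It stood at 114.8 to 121.9 CPM in AE3-null hearts and 83.0 to 114.5 CPM in wild-type hearts, without overlap. Among 9 other collagens Col14a1, which sits on the surface of collagen fibrils, rose, averaging 39.7 ± 3.93 CPM in AE3-null hearts and 32.8 ± 1.77 CPM in wild-type hearts (SD, n = 4 each) (log2 fold change 0.28, SE 0.0673, edgeR adjusted p 0.0198). Among 16 other proteases and inhibitors Adamts9 fell (-0.34). Among 21 integrins and other matrix receptors Itga8 rose (0.46) and Cd36, also a fatty acid transporter, fell (-0.13). Mfap5, Serpinh1, P4ha1, Acvrl1, Ski, Tgfbi and Lum were named after their values were seen. Among the markers, so were Medag, Dpt, Dpep1, Scara5, Pdgfra, Tcf21, Gsn, Lrrc15, Fap, Comp, Acta2, Rgs5, Kcnj8, Ppbp, Lcn2 and Csf3r.

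Markers of the cells that make matrix moved in different directions. Over all tested genes, 3.31% were called lower and 3.16% higher. At an unadjusted p under 0.05 the shares were 11.2% and 9.79%. Of 9 fibroblast markers tested 4 fell, Pi16 (-0.31), Cd248 (-0.39), Medag (-0.25) and Dpt (-0.14, log2). In all, 7 of the 9 had negative log2 fold changes, with a median of -0.13. At an unadjusted p under 0.05, 6 were lower and none higher, Dpep1 (-0.13) and Scara5 (-0.13) being the 2 beyond the calls. The 2 positive genes were Pdgfra, at 0.09 (SE 0.0555), and Tcf21, at 0.07 (SE 0.0884), both defining fibroblast genes and neither called. Gsn alone, which other cells also express, held 2187 to 2310.3 CPM in AE3-null libraries and 2217 to 2408 CPM in wild-type libraries of the list's sum of 2585 to 2715 CPM in AE3-null libraries and 2637 to 2852 CPM in wild-type libraries. With Gsn left out after its values were seen, the list summed to 383 to 404 CPM in AE3-null libraries and 420.3 to 444 CPM in wild-type libraries. These ranges did not overlap, while those of the whole list did. The smaller sum includes the 4 markers already called lower, so it is not a separate result. None of 7 myofibroblast markers was called. Their median log2 difference was 0.15. At an unadjusted p under 0.05, 2 were higher, Lrrc15 (0.35) and Fap (0.30), and 1 was lower, Comp (-0.21). Their sum was 346 to 449 CPM in AE3-null libraries and 318 to 394 CPM in wild-type libraries. Acta2 alone held 183 to 255 CPM of that sum in AE3-null libraries and 166 to 239 CPM in wild-type libraries. Of 8 smooth muscle and pericyte markers 2 rose, Myh11 (0.32) and Abcc9 (0.16). In this list 6 log2 fold changes were positive and 2 negative, those of Rgs5 (-0.05) and Kcnj8 (-0.10), neither called. Of 7 valve and tendon markers Wif1 rose (0.39), but 5 log2 fold changes were negative and the median was -0.13. Of 9 epicardial markers 1 rose, Gpm6a (0.33), with 4 negative and 5 positive log2 fold changes and a median of 0.10. Atrial cardiomyocyte markers held 6 rises among 8, Myl7 (0.47) and Mybphl (0.42) among them. Their summed level was 3911 to 4515 CPM in AE3-null libraries and 2954 to 3513 CPM in wild-type libraries. Ventricular markers held 1 rise, Tnnt2, among 10, with 5 negative and 5 positive log2 fold changes and a median of -0.01. None of 7 red blood cell markers was called, and all had negative log2 fold changes. They are not independent: Hba-a1 and Hba-a2 held identical counts in every library, and Hbb-b1 and Hbb-b2 differed by at most 1 count. With Hba-a2, Hbb-b1 and Hbb-b2 left out, the other 4 genes summed to 1672 to 2321 CPM in AE3-null libraries and 2413 to 3840.1 CPM in wild-type libraries. None of 5 skeletal muscle markers tested was called. How far these shifts take part in the differences of the 40 genes was not tested.

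Of the 30 called genes named from the other matrix and marker lists and followed through the 16 alternative fits, 9 lost their call in none of them: Adamts3, Emilin2, Itga8, Mybphl, Myh11, Myl7, P4ha2, Pecam1 and Pi16. Cd36, Dpt and Serpinh1 lost it in 9, Mfap5, Ski and Tnnt2 in 8, Medag and Vcan in 7 and Fstl1 in 5. Acvrl1, Col14a1, Eng and Ltbp2 lost it in 4, Plod3 in 3, and the other 7 in 1 or 2.

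Mmp9 and Thbs4 passed the threshold in all 16 alternative fits, Sparc in 12, Loxl2 in 10 and Tnc in 5 of the 15 that tested it. The direction was the same in all of these fits for all 5 genes.

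**Figure D5:**
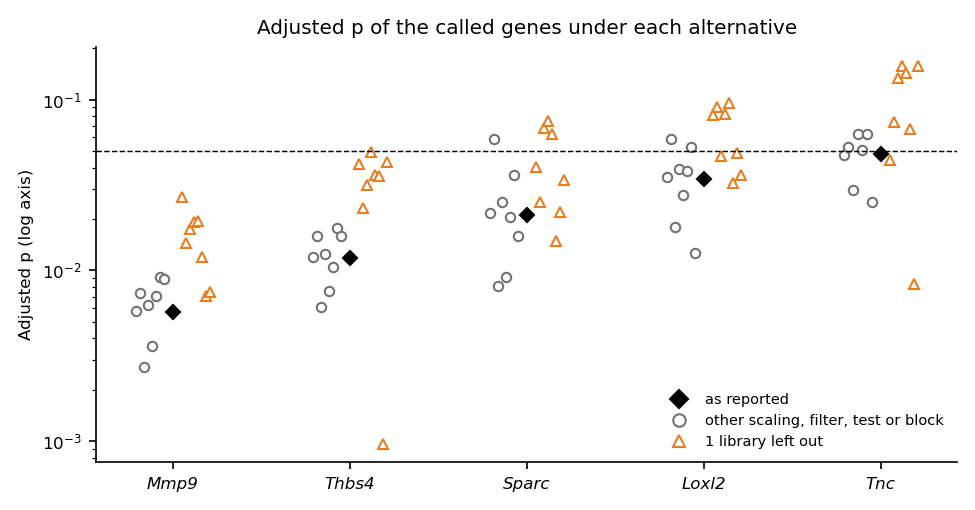
Adjusted p (log axis) of Mmp9, Thbs4, Sparc, Loxl2 and Tnc as reported (diamonds), under other scalings, filters, tests or the replicate block (circles) and with 1 library left out (triangles). The dashed line marks 0.05. All points of Mmp9 and Thbs4 lie below the line and most triangles of Tnc lie above it.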

How the data were processed

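Read counts per gene were used as deposited by the authors, unnormalized, with 1 column for each of 4 AE3-null and 4 wild-type heart libraries. The submitters' processing notes name bcl2fastq from CASAVA 1.8, TopHat, DESeq and the build mm9. The counting program, strand setting and annotation, not given in the sources used here, leave overlapping genes uncertain. The series' design gives 4 mice per genotype, and p-values cover the spread between these libraries. No library duplicated another of its genotype (chi-square per gene at least 2.59).

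Symbols came from a RefSeq table of GRCm38.p6, which matched 23185 of 23282 Entrez numbers. With edgeR 4.0.16 in R 4.3.3, genes were kept by filterByExpr (minimum count 10, 14136 genes), scaled by TMM and compared by the robust quasi-likelihood test with Benjamini-Hochberg adjustment over all tested genes and a threshold of 0.05. Fold changes are AE3-null over wild-type, with the SE taken from the F statistic. Alternatives were RLE or total-count scaling, no filter or a minimum count of 50, DESeq2 1.42.0, limma 3.58.1 (voom), no robust moderation, a threshold of 0.1, a replicate block and the omission of each library in turn. On simulated counts for this comparison over 14136 genes, edgeR found 22 of 50 genes with a 1.25-fold change, 39 of 50 with 1.5-fold and 48 of 50 with 2-fold, and called 9 unchanged genes.

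The 40 genes, their 8 role groups, 6 lists of other matrix genes and 13 marker lists were chosen with earlier results of these data known. Values in every library are given for called genes and, in a role group without one, for the gene with the smallest p. The most abundant gene of each role group is named, and families are described whole. Up to 3 called genes of each other matrix list and up to 2 of each marker list are named.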

Additional observations from a re-analysis of the deposited data

Results flagged for a closer look

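Within groups of 4 libraries, a value was singled out when its gap to the nearest other library, as a share of the group's whole range, passed Dixon's critical value for 4 values. Chance does this in about 1 of 20 groups, and 7 of 142 groups did so. Of the matrix genes described, Tgfb2 was high in wild-type replicate 4, at 27.8 CPM, against 22.1 to 22.3 CPM in the other 3 wild-type libraries. Without that library its log2 fold change was -0.15, against -0.25 with it, and it was not called either way. Tgfbr1 was low in the same library, at 35.4 CPM, against 40.3 to 40.9 CPM in the other 3. Among the other genes named, Cd248 was high in AE3-null replicate 3, at 20.6 CPM, against 15.96 to 16.6 CPM in the other 3, and P4ha2 was high in AE3-null replicate 2, at 73.1 CPM, against 69.6 to 69.8 CPM in the other 3. Mybphl was low in wild-type replicate 1, at 61.9 CPM, against 68.9 to 70.02 CPM in the other 3. Ski was low in wild-type replicate 3, at 155 CPM, against 166 to 168 CPM in the other 3, as was Tnnt2, at 7012 CPM, against 7275 to 7317 CPM in the other 3.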

How the results depend on the processing

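The 5 falls among the 40 genes became 2 with total counts as the only scaling and 3 in edgeR without robust moderation, and ranged from 2 to 8 with 1 library left out. They were 2 when AE3-null replicate 4 or wild-type replicate 1 was left out, 3 when AE3-null replicate 2 was left out and 8 when wild-type replicate 3 was. The rises ranged from 0 to 1, the 1 being Thbs2 without wild-type replicate 3. Over all tested genes the 915 calls became 1546 at an adjusted p under 0.1 and ranged from 407 to 1727 with 1 library left out, lowest with AE3-null replicate 4 left out and highest with wild-type replicate 3 left out. They numbered 431 without wild-type replicate 4 and 569 and 581 without AE3-null replicates 3 and 1. The cause was not tested. Over the 16 alternative fits, which leave out the looser threshold because it uses the same fit, of 637 fold changes of the 40 genes 596 kept direction and side of the threshold, 20 lost the call, 6 gained it and 15 changed sign, none of them called. Fn1 was 0.0014 with total counts only. With 1 library left out the log2 fold changes of the genes that changed sign ranged from -0.143 to 0.000764 for Col3a1, -0.0427 to 0.0269 for Fn1, -0.0586 to 0.00727 for Mmp15, -0.0162 to 0.0415 for Mmp2, -0.02604 to 0.0542 for Tgfbr1, -0.3397 to 0.0202 for Timp1 and -0.193 to 0.295 for Timp4. The labels state no pairing by replicate number. Correlations of same-numbered deviations were 0.162, -0.04, 0.015 and -0.003, and only the libraries numbered 1 correlated best with their own number in both directions. With so few libraries these correlations cannot decide whether any were paired. With the replicate number as a block 5 genes of the 40 were called lower, none higher, and 1002 of all. At this depth Spp1, Timp1 and Tnc did not pass the stricter filter and were not tested there.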

Other observations

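Some ratios of related genes within a library were chosen after their values were seen and are given without a test. The ratio of Thbs2 to Thbs1 CPM was 2.404, 1.97, 2.14 and 2.78 in AE3-null replicates 1 to 4 and 1.81, 1.46, 2.78 and 1.35 in wild-type replicates 1 to 4, with wild-type replicate 3 the highest of all 8. The ratio of Mmp9 to Mmp2 CPM was 0.02196, 0.0249, 0.0238 and 0.0264 in AE3-null replicates 1 to 4 and 0.0412, 0.0405, 0.0445 and 0.03596 in wild-type replicates 1 to 4, and these groups did not overlap. The ratio of Col3a1 to Col1a1 CPM was 2.02, 2.099, 2.01 and 1.85 in AE3-null replicates 1 to 4 and 2.04, 1.83, 2.204 and 1.87 in wild-type replicates 1 to 4, and these groups overlapped.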
